A study of Mus musculus with 30 samples.

Results

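The livers of C57BL/6 mice given a fructose diet were set against the livers of mice given a corn starch control diet, by RNA sequencing. The comparison used all 5 fructose and all 5 control liver libraries, 10 of the 30 libraries in the series, and all 47069 genes in the table of counts. The other libraries were 5 livers of mice given dextrose, the D form of glucose, and 15 duodenum libraries of the same 3 diets. All groups were labelled with the same strain, and no genotype or other agent separated them. The labels name each diet in a word, without its full composition, the amount of sugar or how long it was given, and give neither the age nor the sex of the mice. Whether each library is 1 mouse is not stated either. The p-values therefore rest on the spread among these libraries, which may be technical.

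Fructose reaches the liver through the portal vein and enters hepatocytes by the sugar transporter Slc2a2. Ketohexokinase (Khk) phosphorylates it, the product is split into trioses, and these enter glycolysis below its main point of control. The carbon can leave as glucose, be stored as glycogen, or be made into fatty acids by ATP citrate lyase (Acly), acetyl-CoA carboxylase (Acaca) and fatty acid synthase (Fasn). The transcription factors ChREBP (Mlxipl) and SREBP-1c (Srebf1) are known to raise the genes of this route when sugar and insulin are high.

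Total counts were 14530137 to 16232401 in the fructose libraries and 16912475 to 19285480 in the control libraries. Levels of single genes are given as CPM, the count relative to the library total, scaled by the trimmed mean of M values (TMM), which compares libraries but not genes of different length. The 7 hepatocyte markers summed to 76656 to 92926 CPM in fructose livers and to 65592 to 107644 CPM in control livers, and all 7 were detected in both groups. The library labelled control 2 stood apart. Its 20 cell cycle genes summed to 373 CPM, against 61.2 to 78.4 in the fructose livers and 57.7 to 81.2 in the other control livers. One dextrose library, dextrose 5, had 390 CPM of the same list. Control 2 was also low in the pericentral hepatocyte list, with 2590 CPM against 5279 to 7218 in the fructose livers and 6971 to 9346 in the other controls. Both libraries entered the fit of all 15 livers, so results are given with and without control 2, and where it matters without both. Markers of fat cells, pancreas and intestine were detected in both groups. The adipocyte list summed to 19.1 to 25.4 CPM in fructose livers and to 22.1 to 35.1 CPM in control livers. The pancreatic acinar list summed to 37.9 to 123 CPM in fructose livers and to 39.8 to 518 CPM in control livers. The enterocyte list, which holds genes that liver also expresses, summed to 651 to 975 CPM in fructose livers and to 291 to 1494 CPM in control livers. The part of these lists in the results was not tested, and in bulk tissue fewer cells of a type and less RNA per cell cannot be told apart.

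Fatty acid synthesis gave 5 of the genes that were higher on fructose, more than any other list, and glucose phosphate isomerase was higher as well. The genes that fell included a carboxylesterase, the iron hormone hepcidin and 2 immediate early genes. By edgeR's quasi-likelihood test with Benjamini-Hochberg adjustment, 34 of 13178 tested genes passed an adjusted p of 0.05, which is 0.258% of them. Of these, 25 were higher on fructose (0.19% of tested genes) and 9 were lower (0.0683%). At an unadjusted p under 0.05, 730 genes were higher (5.54%) and 815 lower (6.18%). In 33 of the 34 genes the fructose and control libraries did not overlap, which was so for 217 of all tested genes upward (1.65%) and 162 downward (1.23%). The exception was G6pdx. A gene is said to pass, or a call is counted, by edgeR with all liver libraries unless another tool or fit is named.

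**Figure D1:**
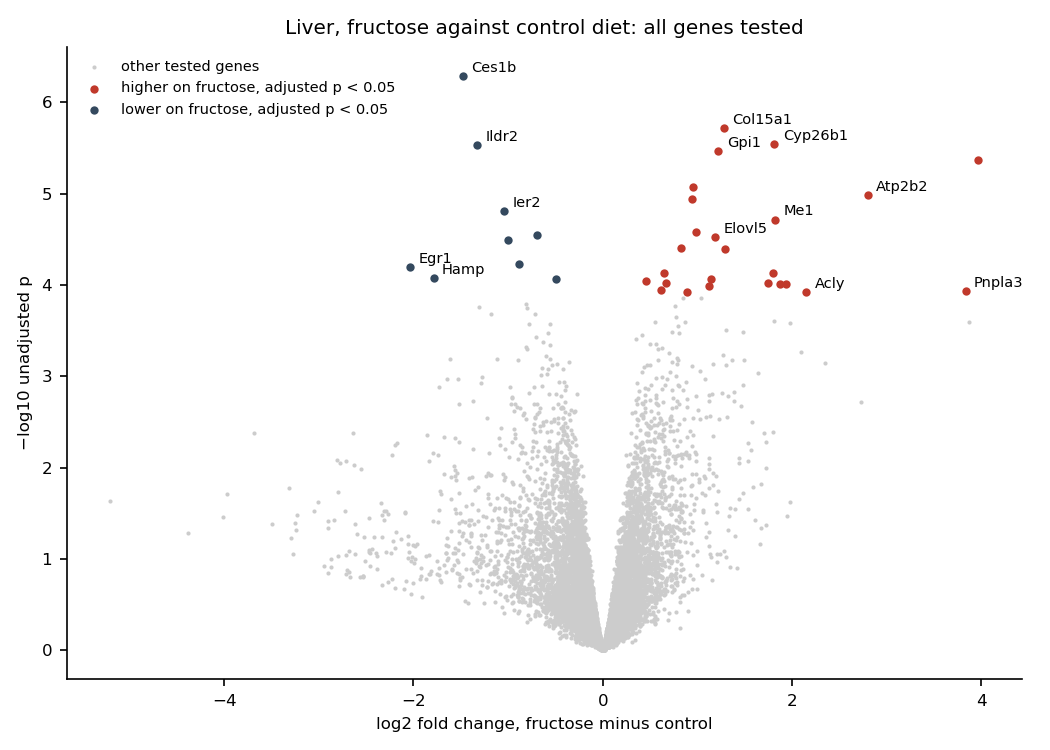
Each point is a gene tested in liver. The horizontal axis is the log2 fold change of fructose minus control and the vertical axis is −log10 of the unadjusted p. The 25 genes that passed the threshold upward lie to the right and reach 3.97, and the 9 that passed downward lie to the left and reach -2.03.

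The number of calls moved with single libraries. Without control 2, 27 of 13224 tested genes passed (0.204%), 19 of them higher (0.144%) and 8 lower (0.0605%). They shared 19 genes with the first set, so 15 calls were lost and 8 were gained. At an unadjusted p under 0.05 there were 6.19% of genes higher and 7.05% lower. The 15 lost genes had an adjusted p of 0.0624 to 0.0844 without control 2 and of 1.9e-05 to 0.208 over all alternatives tried. None of the 34 genes turned its direction under any alternative run, but all alternatives reused the libraries by which these genes were chosen. Left out singly, fructose libraries 1 to 5 gave 6, 6, 8, 19 and 44 calls, and control libraries 1 to 5 gave 17, 27, 7, 62 and 11. Without control 2 and dextrose 5 together, 225 of 13107 genes passed, 121 higher (0.923%) and 104 lower (0.793%), and all 34 genes were among them. In each of the 10 fits that left out 1 library, 6 genes kept their call: Col15a1, Cyp26b1, Gm28548 and Gpi1 upward and Ces1b and Ildr2 downward. Others kept it in fewer of the 10 fits, such as Atp2b2 in 7 and Me1 in 5, and Pnpla3, Scd1, G6pdx, Fam46a, Hamp and Trmt10c in 1.

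Of the genes that take up and break down fructose, ketohexokinase had higher levels on fructose but missed the threshold. Khk stood at 1210.3, 1240.5, 1034, 1183 and 1101 CPM in fructose livers 1 to 5, against 681, 161, 858, 666 and 881 CPM in the control livers. Its groups did not overlap, and its log2 fold change was 0.83 ± 0.36 (SE), with an adjusted p of 0.388; without both libraries the value was 0.58 with an adjusted p of 0.0221. Triokinase (Tkfc), which phosphorylates the glyceraldehyde of this route, stood at 0.56 ± 0.26 (adjusted p of 0.421) on the log2 scale and did not pass. Neither sugar transporter passed, with -0.07 ± 0.33 (adjusted p of 0.942) for Slc2a2 and 0.04 ± 0.58 (adjusted p of 0.986) for Slc2a5, the main fructose transporter of the intestine. The median log2 fold change of the 10 tested members of the fructolysis list was -0.01, beside -0.03 over all genes tested.

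Glucose phosphate isomerase (Gpi1), which interconverts glucose 6-phosphate and fructose 6-phosphate, was the call of the glycolysis list by edgeR, 1 of 14 tested members. DESeq2 called 3 of them, Eno1, Gpi1 and Pdha1, all higher. The Gpi1 levels were 471, 432, 329, 341 and 272 CPM in the fructose livers and 145, 119, 230.2, 159 and 138 CPM in the control livers. The groups did not overlap, and the log2 fold change was 1.22 ± 0.18 with an adjusted p of 0.00896. Liver pyruvate kinase (Pklr), the last step of glycolysis, had wide spread. Pklr had 1061, 998, 822, 726 and 632 CPM in fructose livers 1 to 5, against 361, 46.0, 456, 399 and 254 CPM in control livers 1 to 5. Fructose 1 was the highest and control 2 the lowest, the log2 fold change was 1.48 ± 0.56, and the adjusted p was 0.326. Without both libraries Pklr passed, at 1.20 with an adjusted p of 0.0298. In the gluconeogenesis list 0 of 10 tested members passed by edgeR, 1 was higher and 1 lower at an unadjusted p under 0.05, and DESeq2 called 1, lower. Fructose bisphosphatase (Fbp1) had 0.19 ± 0.13 (adjusted p of 0.587), glucose 6-phosphatase (G6pc) had -0.29 ± 0.46 (adjusted p of 0.833), and phosphoenolpyruvate carboxykinase (Pck1) had -0.21 ± 0.28 (adjusted p of 0.8).

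Fatty acid synthesis had the highest median of the 23 pathway lists. Of 15 tested members, 5 rose and 0 fell, and the median log2 fold change was 1.34, or 1.21 without control 2. Without control 2 the calls were 2, Elovl5 and Me1, and without control 2 and dextrose 5 they were 6, all higher. In 8 of the 15 all fructose livers were above all control livers. ATP citrate lyase makes cytosolic acetyl-CoA from citrate. Acly stood at 2009, 1865, 1250.1, 593 and 411 CPM in fructose livers 1 to 5, against 329.6, 122, 313, 362 and 256 CPM in the control livers. The lowest fructose liver was still above the highest control liver, and the log2 fold change was 2.15 ± 0.42 with an adjusted p of 0.0462. Acetyl-CoA carboxylase 1, the committed step, gave a like picture. The Acaca levels were 621, 497, 451, 266 and 183 CPM in the fructose livers and 112, 62.3, 111, 159.5 and 81.1 CPM in the control livers. It was 1.94 ± 0.37 higher on the log2 scale, with an adjusted p of 0.0448.

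Scd1 and Elovl5 were the calls among desaturation and elongation genes. Stearoyl-CoA desaturase 1 (Scd1) puts the first double bond into saturated fatty acids. Scd1 had 37536, 29320, 25757, 22233 and 15642 CPM in fructose livers 1 to 5, against 9893, 4457, 8708, 8397 and 7525 CPM in control livers 1 to 5. No control liver reached the lowest fructose liver, and the log2 fold change was 1.74 ± 0.34 with an adjusted p of 0.0448. Elovl5 lengthens polyunsaturated fatty acids. Elovl5 stood at 1920.5, 1747, 1644, 1374 and 1304 CPM in fructose livers 1 to 5, against 685, 750.3, 812, 813 and 455 CPM in the control livers. It rose by 1.18 ± 0.21 with an adjusted p of 0.0282, and its call held without control 2. Elovl6, which lengthens palmitate, had a larger difference and more spread. The Elovl6 levels were 734, 577, 501, 398 and 202 CPM in the fructose livers and 146, 56.8, 148, 173 and 167 CPM in the control livers. Control 2 lay far below the other controls, and the log2 fold change of 1.80 ± 0.38 had an adjusted p of 0.0708, against 0.0285 without both libraries. Fatty acid synthase itself did not pass by edgeR, and DESeq2 called it, with Acacb and Elovl6, among 8 of the 15 members. Fasn had 2324, 1850.5, 1727, 946 and 492 CPM in fructose livers 1 to 5, against 514, 122, 498, 722 and 251 CPM in control livers 1 to 5. Fructose 5 and control 2 were the lowest of their groups, and the log2 fold change of 1.80 ± 0.53 had an adjusted p of 0.193 by edgeR, and of 0.0146 to 0.419 over all alternatives. Of the other members, Acacb had 1.44 ± 0.47 (adjusted p of 0.238), Acss2 1.34 ± 0.55 (adjusted p of 0.362) and Thrsp 1.15 ± 0.80 (adjusted p of 0.6), while Fads1 and Fads2, the delta-5 and delta-6 desaturases, had -0.14 ± 0.15 (adjusted p of 0.745) and -0.25 ± 0.21 (adjusted p of 0.666).

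The size of the response differed between fructose livers. Fructose 5 was the lowest fructose library in 13 of the 15 fatty acid synthesis genes, and fructose 1 the highest in 11. Among the 25 genes called higher, fructose 5 was the lowest in 19 and fructose 1 the highest in 14. Among the controls, control 2 was the lowest in 12 of the 15 fatty acid synthesis genes.

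**Figure D2:**
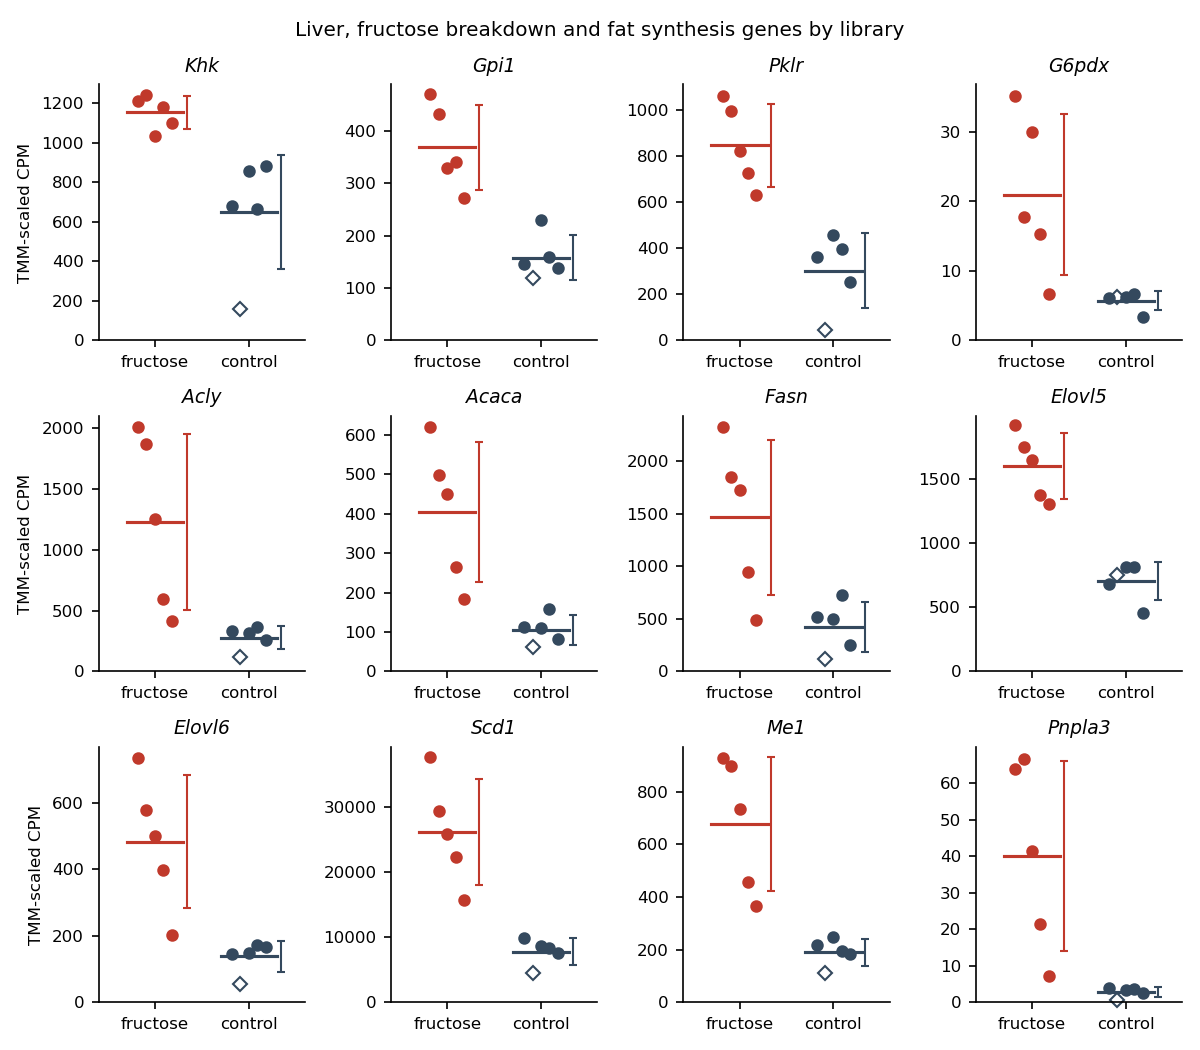
Each panel shows TMM-scaled CPM of 1 gene of fructose breakdown, glycolysis, NADPH supply or fat synthesis in 5 fructose livers (left) and 5 control livers (right); lines are means, bars are SD, and the open diamond is control 2. In Acly, Acaca, Scd1, Me1 and Pnpla3 no control point reaches the lowest fructose point.

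Promoter sequence was read for the genes called higher and searched for 3 short motifs: the E-box, a sterol element known for SREBP, and CCAAT, known for NF-Y. RefSeq promoters of build GRCm38.p6 were at hand for 17 of the 25 genes, 21 promoters in all, and the 250 bases before the start were searched on both strands. The E-box CACGTG stood in 2 of 21, those of Elovl5 and Tjp3, and in 6.02% of all 32851 promoters in the table. The sterol element TCACNCCAC stood in 1, that of Wdr91, and in 1.05% of all promoters. The letters CCAAT stood in 6 and in 33.85% of all. Elovl5 is shown because its window holds an E-box, 161 bases before the start, and 2 CCAAT boxes on the reverse strand, read here as ATTGG, at 71 and 17 bases. Pnpla3 is shown because it had the largest rise among annotated protein genes, and its window holds 1 ATTGG, 99 bases before the start, and neither of the other motifs. The motifs are in capitals and both sequences run 5′ to 3′ on the plus strand, at chr9:77917115-77917364 for Elovl5 and chr15:84167566-84167815 for Pnpla3.
Elovl5: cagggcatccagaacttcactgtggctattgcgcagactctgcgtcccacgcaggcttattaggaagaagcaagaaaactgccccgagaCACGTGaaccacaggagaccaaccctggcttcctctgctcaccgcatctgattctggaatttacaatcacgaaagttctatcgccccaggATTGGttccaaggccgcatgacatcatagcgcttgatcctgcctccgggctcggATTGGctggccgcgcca
Pnpla3: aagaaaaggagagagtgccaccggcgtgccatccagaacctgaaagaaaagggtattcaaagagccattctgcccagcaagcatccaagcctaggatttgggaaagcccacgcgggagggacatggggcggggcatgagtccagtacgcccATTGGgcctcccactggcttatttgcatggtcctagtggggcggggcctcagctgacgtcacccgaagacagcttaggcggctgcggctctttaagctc
A match to these letters is a description of the window and not evidence of binding.

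Among enzymes that supply NADPH, the reducing power of fat synthesis, Me1 and G6pdx passed. Of 9 tested members of the pentose phosphate and NADPH list, 2 rose (1 without control 2) and 0 fell, and the median was 0.43. Malic enzyme 1 (Me1) makes NADPH while turning malate into pyruvate. Me1 stood at 929, 896, 733, 457 and 368 CPM in fructose livers 1 to 5, against 216, 111, 249, 196 and 183 CPM in the control livers. Its log2 fold change was 1.82 ± 0.30 with an adjusted p of 0.023, and the call held without control 2. Glucose 6-phosphate dehydrogenase (G6pdx) opens the pentose phosphate pathway. The G6pdx levels were 35.2, 17.8, 29.97, 15.3 and 6.66 CPM in the fructose livers and 6.12, 6.26, 6.23, 6.67 and 3.32 CPM in the control livers. The groups touched at fructose 5 and control 4, and the log2 fold change was 1.87 ± 0.36 with an adjusted p of 0.0448. By edgeR the next enzyme, Pgd, had 1.03 ± 0.29 (adjusted p of 0.171), and transketolase (Tkt) had 0.50 ± 0.15 (adjusted p of 0.21). DESeq2 and voom with sample quality weights each called Pgd, higher.

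Pnpla3, a lipid droplet protein that acts on triglycerides and retinyl esters, had the largest rise of any annotated protein gene that passed. Pnpla3 had 63.8, 66.7, 41.4, 21.5 and 7.17 CPM in fructose livers 1 to 5, against 4.01, 0.630, 3.34, 3.68 and 2.54 CPM in control livers 1 to 5. The levels were low in most controls, the log2 fold change was 3.83 ± 0.72, and the adjusted p was 0.0462, or 0.0701 without control 2. It was the only call by edgeR among 16 tested members of the triglyceride and lipid droplet list, whose median was -0.21. DESeq2 called 4 of them, Pnpla3 and Gpam higher and Cidec and Pnpla2 lower. By edgeR, Gpam, the first step of glycerolipid synthesis, had 1.49 ± 0.35 (adjusted p of 0.109). Cidec, a lipid droplet fusion protein that fat cells also express, had -2.71 ± 0.88 (adjusted p of 0.248). Control 2 had 89.0 CPM of Cidec, against 3.22 to 9.57 CPM in the other controls and 2.50 to 4.39 CPM in the fructose livers. Adipoq, a marker of fat cells, averaged 0.150 ± 0.115 CPM on fructose and 0.770 ± 0.588 CPM on control (SD, n = 5 each). Control 2 was not high in the adipocyte list, with 22.5 CPM against 22.1 to 35.1 CPM in the other controls. The median of that list was -2.31, or -2.43 without control 2. Adipoq, Plin1 and Cfd had log2 fold changes of -2.31, -2.31 and -2.63 and did not pass by edgeR, while DESeq2 called Cfd. The other tested members, Fabp4 and Adrb3, had -0.32 and 0.22, and the part of fat cells in the Cidec value was not tested.

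Known ChREBP targets overlap with the lists above. Of 17 tested, 4 rose and 0 fell, namely Pnpla3, Acly, Acaca and Me1, with a median of 0.83, or 0.58 without control 2. Without control 2 the call was Me1 alone, and without control 2 and dextrose 5, 7 of the 17 rose. Txnip, a thioredoxin-binding protein and a target in sugar-treated cells, had the lower mean on fructose but did not pass. Txnip stood at 45.5, 36.2, 35.8, 55.6 and 73.2 CPM in fructose livers 1 to 5, against 61.9, 101, 98.5, 176 and 40.9 CPM in the control livers. The log2 fold change was -0.96 ± 0.34 (adjusted p of 0.287). Fgf21, a liver hormone that sugar is known to induce, was spread over a wide range. The Fgf21 levels were 9.56, 8.67, 7.86, 5.51 and 5.49 CPM in the fructose livers and 3.55, 37.4, 12.1, 12.5 and 2.72 CPM in the control livers. Control 2 was by far the highest control, and the log2 fold change was -0.89 ± 0.69 (adjusted p of 0.641), or -0.049 without control 2. The regulators themselves had 0.54 ± 0.31 (adjusted p of 0.518) for Mlxipl and -0.25 ± 0.27 (adjusted p of 0.761) for Srebf1, so neither passed at the level of RNA.

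Cholesterol and fat oxidation genes gave 0 calls by edgeR, and 1 each by DESeq2 (Mvd, higher, and Hadhb, lower). In the cholesterol list 18 of 20 tested members had positive values, beside 6025 of all 13178 tested genes. Its median was 0.41, and 7 members were higher at an unadjusted p under 0.05, as were 5.54% of all genes. Without control 2, 6 were higher and 1 lower at an unadjusted p under 0.05, and the median was 0.27. The list summed to 1385 CPM in control 2, against 2096 to 2726 CPM in the other controls. Mvd, an enzyme of the mevalonate pathway, had 1.53 ± 0.47 (adjusted p of 0.214), and control 2 had 3.61 CPM of it, against 15.1 to 24.0 CPM in the other controls. In the list of fatty acid oxidation and PPARA targets 18 of 21 had negative values. Of these, 9 had an unadjusted p under 0.05, beside 6.18% of all genes lower at that p, and the median of the list was -0.36. Without control 2, 7 had an unadjusted p under 0.05, all lower, and the median was -0.28. Cpt1a, which passes fatty acids into mitochondria, had -0.36 ± 0.16 (adjusted p of 0.417). Cyp4a14, a PPARA target with close paralogs, had -3.00 ± 1.18 (adjusted p of 0.348). Control 2 had 1364 CPM of Cyp4a14, against 51.1 to 110 CPM in the other controls and 9.99 to 105 CPM in the fructose livers. The 16 amino acid and urea cycle genes had 0 calls by edgeR, 6 with an unadjusted p under 0.05, all lower, and a median of -0.25; DESeq2 called Asl and Gls2, both lower.

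**Figure D3:**
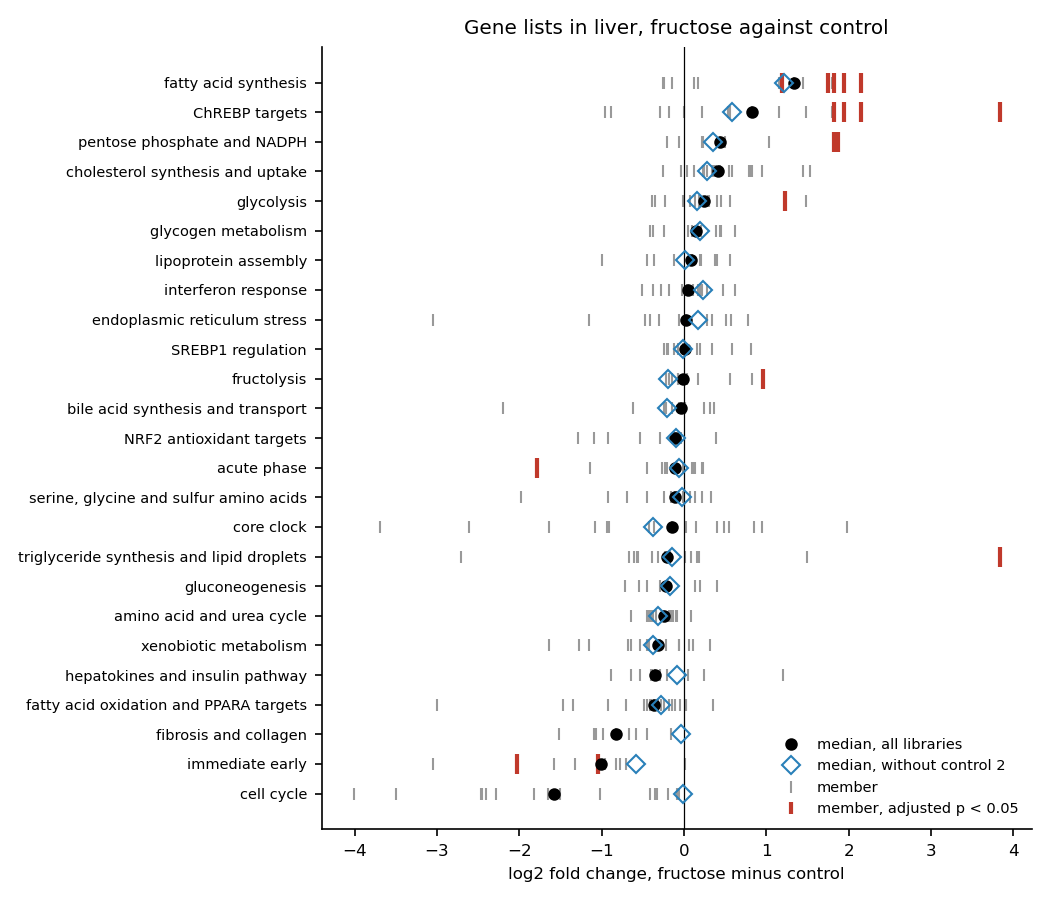
Each row is a pathway list, the cell cycle list or the immediate early list, and each tick is the log2 fold change (fructose minus control) of a tested member, red where it passed the threshold; black circles are medians with all libraries and open diamonds medians without control 2. Of the lists drawn, fatty acid synthesis has the highest median at 1.34, and cell cycle the lowest at -1.58, which is -0.02 without control 2 (16 of 20 members tested).

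Other genes that rose included Cyp26b1, Atp2b2 and Col15a1. Cyp26b1, an enzyme that breaks down retinoic acid, was high in every fructose liver. Cyp26b1 had 21.02, 19.1, 23.3, 30.04 and 21.4 CPM in fructose livers 1 to 5, against 4.98, 8.15, 5.23, 8.73 and 5.50 CPM in control livers 1 to 5. The log2 fold change was 1.81 ± 0.26 with an adjusted p of 0.00896, and it passed under all 21 alternatives run. Atp2b2, a calcium pump of the plasma membrane best known in nerve and sensory cells, was low on control. Atp2b2 stood at 20.7, 17.8, 18.6, 18.6 and 9.95 CPM in fructose livers 1 to 5, against 2.92, 3.95, 2.27, 1.95 and 1.09 CPM in the control livers. Fructose 5 lay between the other fructose livers and the controls, and the log2 fold change was 2.80 ± 0.43 with an adjusted p of 0.0168. Col15a1 is a basement membrane collagen. The Col15a1 levels were 14.9, 17.3, 16.8, 16.1 and 12.3 CPM in the fructose livers and 5.55, 6.34, 4.47, 5.98 and 9.61 CPM in the control livers. It rose by 1.28 ± 0.18 with an adjusted p of 0.00896 and also passed under all 21 alternatives. The fibrosis and collagen list, which does not hold Col15a1, had 0 calls by edgeR or DESeq2 among 9 tested members, 0 with an unadjusted p under 0.05, and a median of -0.82, or -0.04 without control 2.

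Membrane and cell contact genes were also among the rises. Celsr1, a cadherin of planar cell polarity, averaged 33.2 ± 4.70 CPM on fructose, against 13.6 ± 4.52 on control (SD, n = 5 each). Tjp3, a tight junction scaffold, averaged 55.2 ± 3.02 CPM on fructose, against 35.2 ± 7.13 on control (SD, n = 5 each). Svil, an actin-binding protein of the cell cortex, averaged 53.5 ± 16.5 CPM on fructose, against 24.7 ± 5.94 on control (SD, n = 5 each). All 3 passed with all libraries (adjusted p of 0.0315, 0.0448 and 0.0452) and missed the threshold without control 2. Slc17a4, an organic anion and urate transporter, averaged 91.4 ± 15.3 CPM on fructose, against 49.3 ± 10.9 on control (SD, n = 5 each), with a log2 fold change of 0.89 ± 0.18 (adjusted p of 0.0462). Mr1, which presents vitamin B metabolites to mucosal-associated T cells, averaged 9.98 ± 2.75 CPM on fructose, against 4.53 ± 0.967 on control (SD, n = 5 each), with 1.14 ± 0.22 (adjusted p of 0.0448). Neither Slc17a4 nor Mr1 passed without control 2.

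Smaller rises were also among the calls. Galc, a lysosomal enzyme that splits galactosylceramide, averaged 12.9 ± 2.22 CPM on fructose, against 7.26 ± 0.941 on control (SD, n = 5 each), with a log2 fold change of 0.83 ± 0.15 (adjusted p of 0.0315). Rassf6, a Ras-association protein tied to apoptosis, averaged 15.5 ± 3.83 CPM on fructose, against 7.85 ± 0.862 on control (SD, n = 5 each), with 0.98 ± 0.17 (adjusted p of 0.0282). Wdr91, an endosome maturation factor, had 0.67 ± 0.13 (adjusted p of 0.0448) and Fam46a had 0.62 ± 0.12 (adjusted p of 0.0462), and without control 2 both missed the threshold, with an adjusted p of 0.0666 each. Pdcl, a phosducin-like chaperone partner, had 0.46 ± 0.09 (adjusted p of 0.0448). Other calls were the protein-coding genes 4930452B06Rik, with 1.80 ± 0.34 (adjusted p of 0.0448), and A230050P20Rik, with 0.95 ± 0.15 (adjusted p of 0.0168). The predicted gene Gm28548 had the largest fold change of all but rests on few reads. It had 31, 44, 30, 19 and 17 counts in fructose livers 1 to 5, against 3, 0, 3, 2 and 2 counts in control livers, and its log2 fold change was 3.97 ± 0.58 with an adjusted p of 0.00932. The library kit does not mark strand, so reads of overlapping genes cannot be told apart for such genes.

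Of the 9 genes that fell, Ces1b had the smallest p. It belongs to a cluster of similar carboxylesterase genes, so reads shared with its copies make its level uncertain. Ces1b had 15.8, 14.5, 12.9, 14.3 and 17.0 CPM in fructose livers 1 to 5, against 40.9, 56.1, 40.9, 39.7 and 29.6 CPM in control livers 1 to 5. Every fructose liver was below the lowest control, the log2 fold change was -1.47 ± 0.18 with an adjusted p of 0.00673, and the call held under all 21 alternatives. Ildr2, a membrane protein tied to liver lipid handling in mice, gave the second clear separation. Ildr2 stood at 3.23, 3.07, 3.53, 4.24 and 5.75 CPM in fructose livers 1 to 5, against 9.73, 12.01, 9.76, 10.9 and 7.495 CPM in the control livers. Its log2 fold change was -1.33 ± 0.19 with an adjusted p of 0.00896. Hamp encodes hepcidin, the hormone that blocks iron release into blood. The Hamp levels were 130.4, 151, 464, 372 and 322 CPM in the fructose livers and 747, 1299, 1159, 576 and 1185 CPM in the control livers. The highest fructose liver was below the lowest control, and the log2 fold change was -1.79 ± 0.34 with an adjusted p of 0.0448. The call was lost without control 2, and mouse has a near copy, Hamp2, so the counting could split their reads. Hamp was the only call among 12 tested acute phase genes, whose median was -0.11.

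Immediate early genes, which respond within minutes to stress or growth signals, included 2 calls of 10 tested, both lower. Egr1 is a zinc finger transcription factor of this class. Egr1 had 35.7, 41.2, 24.4, 36.3 and 15.1 CPM in fructose livers 1 to 5, against 70.4, 245, 112, 75.5 and 121 CPM in control livers 1 to 5. Control 2 held the highest value, but all fructose livers were below all controls, and the log2 fold change was -2.03 ± 0.37 with an adjusted p of 0.0437. Ier2 had less spread. Ier2 stood at 32.2, 32.5, 24.2, 33.4 and 23.0 CPM in fructose livers 1 to 5, against 54.0, 75.4, 54.1, 45.5 and 70.7 CPM in the control livers. It fell by 1.04 ± 0.17 on the log2 scale, with an adjusted p of 0.0205. Both calls held without control 2. The list's median was -1.003, or -0.58 without control 2, and its summed level was 209.6 to 373 CPM in fructose livers and 325 to 737 CPM in control livers, with control 2 the highest. The labels do not give the hour at which the tissue was taken.

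Genes of ribosome assembly and RNA modification made up the rest of the falls. Gnl3 (nucleostemin) averaged 18.4 ± 1.65 CPM on fructose, against 29.7 ± 5.27 on control (SD, n = 5 each), with a log2 fold change of -0.70 ± 0.12 (adjusted p of 0.0282). Ccdc86, a nucleolar protein, averaged 6.68 ± 1.05 CPM on fructose, against 13.4 ± 3.34 on control (SD, n = 5 each), with -1.005 ± 0.18 (adjusted p of 0.0285). Ppan, a factor for the large ribosomal subunit, averaged 10.1 ± 1.23 CPM on fructose, against 18.6 ± 4.56 on control (SD, n = 5 each), with -0.89 ± 0.16 (adjusted p of 0.0429). Trmt10c, a subunit of mitochondrial RNase P, averaged 15.5 ± 1.01 CPM on fructose, against 21.8 ± 0.722 on control (SD, n = 5 each), with -0.49 ± 0.09 (adjusted p of 0.0448). Control 2 was the highest control in 6 of the 9 genes that fell, and Ppan and Trmt10c missed the threshold without it. The other genes of these classes were not gathered as a list.

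**Figure D4:**
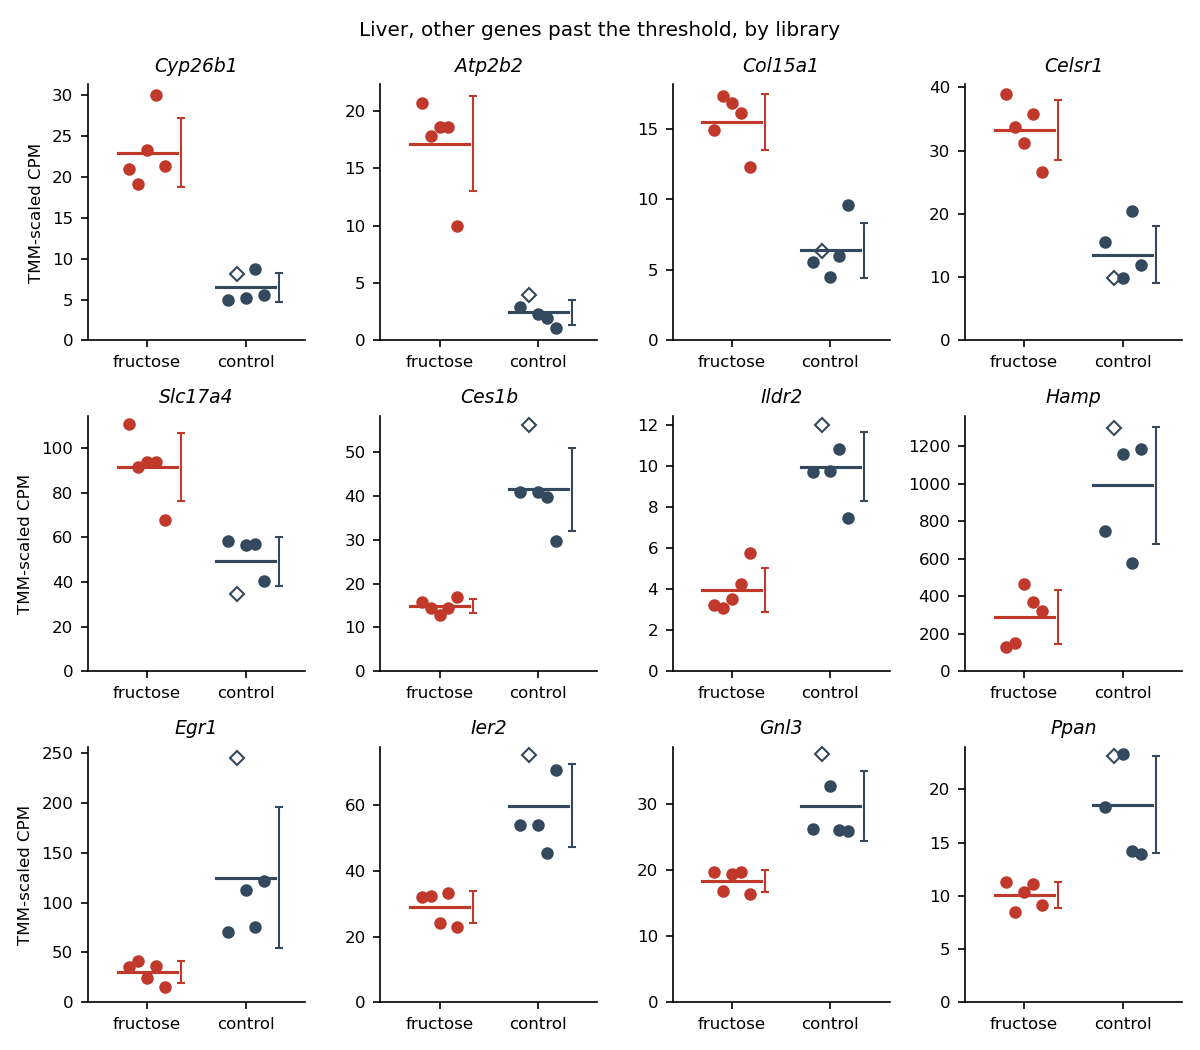
Each panel shows TMM-scaled CPM of 1 gene in 5 fructose livers (left) and 5 control livers (right); lines are means, bars are SD, and the open diamond is control 2. The first 5 genes were higher and the other 7 lower on fructose, and in each of the 12 panels the groups do not overlap.

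Leaving out control 2 brought in 8 genes. Trim2, a ubiquitin ligase, had 1.01 ± 0.17 on the log2 scale (adjusted p of 0.0339). Insig2, which holds SREBP in the endoplasmic reticulum, had 0.74 ± 0.14 on the log2 scale (adjusted p of 0.0426). Lgalsl, a galectin-related protein, had 1.56 ± 0.26 on the log2 scale (adjusted p of 0.0369). The other genes that rose were Tbc1d31 with 1.34 ± 0.24 on the log2 scale (adjusted p of 0.0369), Ccdc149 with 1.74 ± 0.32 on the log2 scale (adjusted p of 0.0425), and the pseudogene Cyp21a2-ps. Among the falls, Enho, which encodes the secreted peptide adropin, had -1.03 ± 0.17 on the log2 scale (adjusted p of 0.0339), and Coa7, a cytochrome c oxidase assembly factor, had -0.62 ± 0.12 on the log2 scale (adjusted p of 0.0444). In Tbc1d31 and Ccdc149 control 2 was the highest control by a wide margin, at 17.1 CPM against 4.53 to 5.98 CPM in the other controls for Tbc1d31, and at 5.50 CPM against 1.26 to 1.63 CPM in the other controls for Ccdc149. With all libraries these named genes had adjusted p of 0.071 to 0.365, and over all alternatives of 0.00043 to 0.577.

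**Figure D5:**
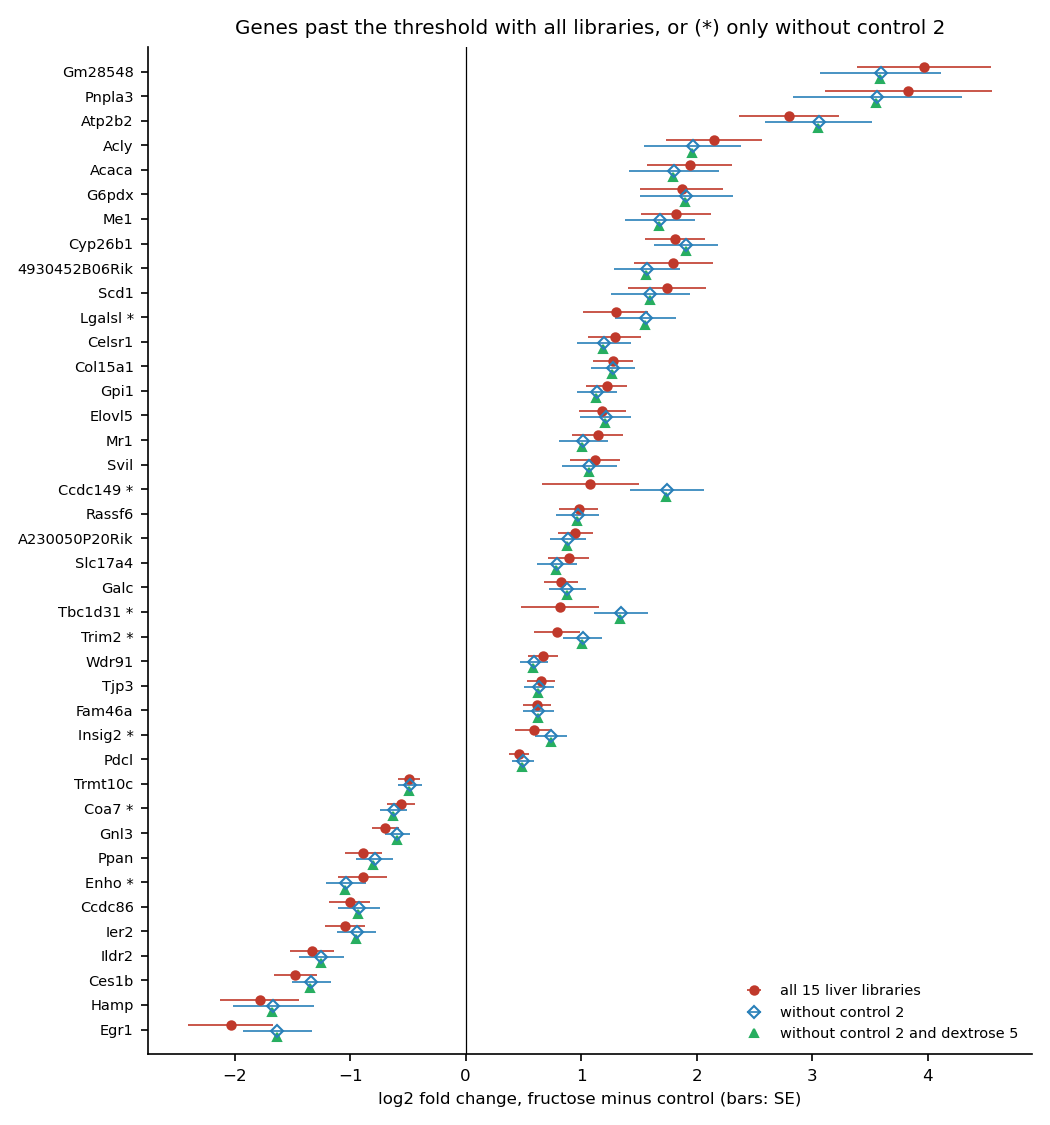
Each row is a gene, and the horizontal axis is its log2 fold change (fructose minus control) with all 15 liver libraries (circles, bars SE), without control 2 (open diamonds, bars SE) and without control 2 and dextrose 5 (triangles). The genes shown keep their direction in the 3 fits; starred genes passed only without control 2.

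Fructose was also set directly against dextrose in the same fit, which shares the fructose libraries with the contrast above. Of 13178 genes, 8 were higher on fructose (0.0607%) and 2 were lower (0.0152%). The rises included Gm28548, Atp2b2, Me1, Cyp26b1, Gpi1, Col15a1 and Slc17a4, and the falls were Ces1b and Ildr2. Me1 averaged 676 ± 254 CPM on fructose and 166 ± 58.4 CPM on dextrose (SD, n = 5 each), a log2 fold change of 2.03 ± 0.30 with an adjusted p of 0.016. Cyp26b1 averaged 23.0 ± 4.21 CPM on fructose and 7.93 ± 3.20 CPM on dextrose (SD, n = 5 each), a log2 fold change of 1.53 ± 0.25 with an adjusted p of 0.028. Ces1b averaged 14.9 ± 1.55 CPM on fructose and 36.7 ± 10.1 CPM on dextrose (SD, n = 5 each), a log2 fold change of -1.30 ± 0.18 with an adjusted p of 0.00973. Acly, at 1.87 ± 0.41 (adjusted p of 0.111), and Scd1, at 1.58 ± 0.34 (adjusted p of 0.107), did not pass against dextrose. The count of calls was 4 without fructose 1, 2 or 3, 5 without fructose 4 or dextrose 1, 3 without dextrose 2, 20 without fructose 5, and 250 without control 2 and dextrose 5.

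The fructose effect in liver was tested against that in duodenum by an interaction term over all 30 libraries. Of 15268 genes, 63 had a higher fructose effect in liver (0.413%) and 102 a lower one (0.668%). Of the 34 liver genes, 12 differed between the tissues. The 34 were chosen by the liver difference that the interaction term contains, so this count is not independent of that choice. Acly had a log2 effect of 2.14 in liver and 0.11 in duodenum (adjusted p of the difference 0.0238), G6pdx of 1.86 in liver and -0.07 in duodenum (adjusted p of the difference 0.00705), and Svil of 1.11 in liver and -0.43 in duodenum (adjusted p of the difference 0.002). Egr1 had -2.05 in liver and 0.24 in duodenum (adjusted p of the difference 0.0162), and Ier2 had -1.06 in liver and 0.08 in duodenum (adjusted p of the difference 0.00705). The count was 106 without duodenum fructose 3 and 102 without liver fructose 2. Duodenum fructose 3 and control 3 had 67.8 and 160.4 CPM of pancreatic acinar markers, against at most 13.4 in the others, and duodenum control 5 had 195 CPM of hepatocyte markers, against at most 19.8. Without these 3 libraries 57 genes differed, with 3 of the 12 still among them: Ier2, G6pdx and Svil. A large difference was in Fbp1, with 0.17 in liver and 3.52 in duodenum (adjusted p of the difference 3.30e-13) and an adjusted p of 2.33e-10 without those libraries. Tkfc, with 0.54 in liver and 2.02 in duodenum (adjusted p of the difference 0.0104), and Slc2a5, with 0.02 in liver and 3.02 in duodenum (adjusted p of the difference 0.0137), had lower fructose effects in liver with all libraries. Without those 3 libraries both missed the threshold, with adjusted p of 0.0822 for Tkfc and 0.0854 for Slc2a5.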

How the data were processed

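RNA of C57BL/6 duodenum and liver was sequenced as poly-A libraries, per the labels' protocols. The authors deposited 1 table with raw counts and FPKM for 47069 Ensembl genes in 30 libraries. The submitters' processing notes name DESeq 1.18.0, HTSeq 0.6.1, Bowtie2 2.2.3 and TopHat2 2.0.12. Neither build nor annotation was given in the sources used here, and no coordinates from the files are printed. The deposited FPKM equal the counts over 1 length per gene and the library total, within 0.001 for 100% of values.

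The tests on the deposited counts used edgeR 4.0.16 in R 4.3.3: 15 liver libraries, 3 diets, filterByExpr, TMM, robust quasi-likelihood F test (two-sided), Benjamini-Hochberg adjustment over all tested genes, and a threshold of 0.05. An SE is the absolute log2 fold change over the root of F. The alternatives used DESeq2 1.42.0, limma 3.58.1 on log2(FPKM + 1) and log2(FPKM + 0.1), voom, other scalings and filters, fewer libraries and a replicate block. The table names 22528 genes by symbol, and GENCODE M21 named 24237 more. The members, the 40 gene lists and the tests were chosen with earlier results of these data known. Named genes were the largest rises and falls past the threshold, up to 4 passing members per list, 24 fixed genes of sugar and fat handling, genes gained without control 2, and the largest differences for the other contrasts; the remaining calls were named after their values were seen and a few genes are not reported here. Leaving out control 2 and dextrose 5 together in the contrast with dextrose, leaving out 3 duodenum libraries, and single leave-outs for the other contrasts were chosen after seeing the data. Within liver groups, replicates were further apart than counting error allows (lowest chi-square 7.61 per degree of freedom, r of 0.916 to 0.991). The code was tested on simulated data.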

Additional observations from a re-analysis of the deposited data

Results flagged for a closer look

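In 8 of 112 groups of 5 values, 1 library lay far from its group. Chance flags about 1 in 20 independent groups. That rate does not hold here, because the groups reuse the same 10 libraries and many genes were named by their values in them. In control livers, control 2 stood apart in 5 genes. It had 0.546 CPM of 4930452B06Rik, against 1.77 to 2.00 in the other controls, and 56.8 CPM of Elovl6, against 146 to 173. It had 37.4 CPM of Fgf21, against 2.72 to 12.5, 17.1 CPM of Tbc1d31, against 4.53 to 5.98, and 5.50 CPM of Ccdc149, against 1.26 to 1.63. Tbc1d31 and Ccdc149 were named because they were gained without control 2, so their flags are not independent of that choice. Fructose 5 had 9.95 CPM of Atp2b2, against 17.8 to 20.7 in the other fructose livers. Control 4 had 9.37 CPM of Rassf6, against 7.27 to 7.68, and control 5 had 3.32 CPM of G6pdx, against 6.12 to 6.67.

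In 22 named genes the fructose effect differed between liver and duodenum by the interaction term (edgeR, adjusted p under 0.05). Over all 15268 genes, the difference was higher in liver for 63 (0.413%) and lower for 102 (0.668%). Alb, Clec4f, Scarb1, Sprr1a, Mgat4c, Cyp3a44 and Nek5 were named for large differences in this same test, so their flags are not independent of it. The genes called in liver were chosen by the liver difference that the term contains. Of them, only Ier2, G6pdx and Svil passed without duodenum control 3, control 5 and fructose 3. The difference, liver minus duodenum on the log2 scale, was positive for 10 of the named genes that follow. In fat and sugar metabolism it was 2.03 for Acly, 1.93 for G6pdx, 1.20 for Elovl5 and 2.93 for Pck1, the control step of gluconeogenesis, whose call was lost in 16 of 22 alternatives. In other genes called in liver it was 2.84 for Atp2b2, 1.54 for Svil and 1.22 for Galc. It was 3.99 for Clec4f, a Kupffer cell marker, 2.85 for Scarb1, a lipoprotein receptor, and 6.51 for Alb, whose duodenum level was 115 CPM in control 5 and 0.15 to 0.34 CPM in the other controls. For Pck1, Clec4f, Scarb1 and Alb these values came from lower levels in duodenum on fructose. Their log2 effects there were -3.16, -3.85, -3.03 and -6.40, against -0.23, 0.13, -0.18 and 0.11 in liver. Clec4f was barely detected in duodenum, where no fructose or control library exceeded 1.37 CPM. Its difference ran from 3.35 to 4.89 over the alternatives.

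The difference was negative for the rest. Among genes of sugar handling it was -1.48 for Tkfc, of fructose breakdown, -2.99 for the transporter Slc2a5, and -3.34 for Fbp1, of gluconeogenesis. Among immediate early genes it was -1.14 for Ier2 and -2.29 for Egr1. Among nucleolar genes it was -1.10 for Gnl3, -1.54 for Ccdc86 and -1.36 for Ppan. The remaining 4 genes had few or no counts in most livers, so the sizes of their differences depend on the fit. It was -9.95 for Sprr1a, where liver control 2 had 34.4 CPM, and -6.05 for Mgat4c, which had 0 counts in all 5 fructose livers and lost its call in 18 of 22 alternatives. It was -4.54 for Cyp3a44, which has close paralogs and had 0 to 2 counts in fructose livers, and -3.37 for Nek5, which had 1 to 6.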

How the results depend on the processing

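No called gene changed direction under any alternative, all of which reused the libraries by which the genes were chosen. The number of calls did move. With all libraries 34 genes were called, 25 higher and 9 lower. DESeq2 called 232 (135 higher, 97 lower), 33 of them among the 34, and voom with sample quality weights 100 (71 higher, 29 lower), with 28 shared. The 10 fructose and control libraries alone gave 14 (10 higher, 4 lower). Leaving out control 2 and dextrose 5 gave 225 (121 higher, 104 lower). Calls under the other scalings, filters and FPKM scales numbered 25 to 36. Leaving out each library in turn gave 6 to 62 calls, 4 to 41 higher and 2 to 21 lower. The causes were not tested.

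Same-numbered fructose and control livers had deviations correlated at -0.248 to 0.169, and 1 of 5 matched its own number best. The labels do not say whether the numbers pair the samples, and 5 such correlations are too few to decide it. With a replicate block 4 genes were called (3 higher, 1 lower), 0 against dextrose (1039 at an unadjusted p under 0.05) and 111 between tissues. Against dextrose the leave-one-out counts ran from 3 to 20, and leaving out control 2 and dextrose 5 gave 250. Between tissues they ran from 102 to 222, and leaving out 3 duodenum libraries gave 57.

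Signs turned in genes that did not pass or rested on 1 library. Slc2a2 was 0.0032 with the block and -0.257 to 0.117 over leave-outs. Slc2a5 was -0.0041 with voom, -0.254 without control 2 and dextrose 5, and -0.247 to 0.232 over leave-outs. Fgf21 was 0.332 with voom. The tissue difference of Alb was -0.337 without the 3 duodenum libraries and -0.088 to 6.83 over leave-outs. The effect of depth on the calls was not tested; Gm28548 rests on at most 3 counts in a control liver.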

Other observations

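Core clock genes had wide spread in the livers. Of 17 tested, 0 passed by edgeR, and at an unadjusted p under 0.05 there were 1 higher and 3 lower, or 3 higher and 5 lower without control 2. Over all genes tested, 5.54% were higher and 6.18% lower at that p, or 6.19% and 7.05% without control 2. The median log2 fold change was -0.14, or -0.37 without control 2. Without control 2 and dextrose 5 edgeR called 1, Bhlhe40, lower. Npas2, a partner of the clock activator Arntl, averaged 11.3 ± 4.23 CPM on fructose and 2.83 ± 2.39 CPM on control (SD, n = 5 each). Dbp, a clock output factor, averaged 6.79 ± 7.76 CPM on fructose and 41.7 ± 48.1 CPM on control. Ciart, a repressor of the clock, averaged 0.348 ± 0.274 CPM on fructose and 4.56 ± 7.63 CPM on control. Bhlhe40, a repressor that also responds to feeding, averaged 53.5 ± 9.40 CPM on fructose and 102.6 ± 45.6 CPM on control, with a log2 fold change of -0.94 ± 0.27 (adjusted p of 0.188). DESeq2 called Bhlhe40 and Ciart, both lower, and voom with sample quality weights called Bhlhe40. The groups overlapped in each of these 4 genes.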
